A study of Mus musculus with 6 samples.

Results

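The Zbtb family comprises transcription factor genes whose proteins pair an N-terminal BTB domain, which forms dimers and recruits corepressors, with C2H2 zinc fingers that bind DNA. The members were all probes of the Illumina mouse bead array table whose annotated gene symbol begins with Zbtb. This rule took 68 of 45281 probes, for 38 of 19057 named genes, and used no measured value. The symbol Zbtb8os is included by its letters, but that gene is named for its place beside Zbtb8 and encodes archease, a cofactor of RNA ligation, not a BTB zinc finger protein.

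The RNA was that of thymic lymphocytes, freed mechanically, from C57/bl6-129sv mice 8 to 12 weeks old. The KO group held 3 CD4-Cre/Kap1flox mice, in which Cre removes KAP1 (symbol Trim28) from T cells, and the WT group held 3 wt/Kap1flox littermates, with 1 array per mouse. The controls therefore carry the floxed allele by their label, but how many floxed copies they have, and whether any has Cre, the labels do not say. CD4-Cre is active from the double-positive stage, and no sort or gate is named, so less RNA per cell and fewer cells of a type cannot be told apart. The comparison asks which transcripts of T cell progenitors differ when KAP1, the corepressor of KRAB zinc finger proteins, is removed.

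Several members steer T cell development. Zbtb7b encodes ThPOK, which commits MHC class II-selected thymocytes to the CD4 lineage and silences CD8 lineage genes. Zbtb16 encodes PLZF, which directs the innate-like programme of natural killer T cells. Zbtb1 and Zbtb17 are needed for early lymphoid progenitors, the latter as Miz-1, a partner of Myc. BTB zinc finger proteins repress through the NCOR, SIN3 and histone deacetylase complexes.

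Detection and level were first read for each member. A probe counts as detected on an array when its detection p, computed by the scanner software against negative control beads, is under 0.01. Levels are log2 signals after background correction and quantile equalization with an offset of 16, so differences of dim probes are understated, and levels of different probes are not compared. Per array, 30.9% to 33.5% of all probes were detected, and mean raw signals ran from 340.1 to 678.5. Trim28 was lower on all KO arrays (10.83, 11.01 and 10.23) than on all WT arrays (12.39, 12.25 and 12.59), a log2 difference of -1.72 ± 0.26 (SE, n = 3 per group; limma adjusted p = 0.23). T lineage and double-positive markers were detected for 8 of 9 genes on the array, with a summed corrected signal of 62674 to 76658 in KO and 65753 to 66191 in WT. The exception was Cd8a, whose 2 probes were detected on 0 arrays although the brightest probe of Cd8b1, the other CD8 chain, read 15.45 to 15.55, so a silent probe on this platform does not show an absent transcript.

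Most member probes were detected either on every array or on none, as were most probes of the platform. Of the 68 probes, 29 were detected on 6 arrays, 9 on 1 to 5 arrays and 30 on 0 arrays. That is 44.1% of members detected nowhere, beside 61.2% of all probes on the platform. Of all 45281 probes 12342 were detected on 6 arrays. On at least 3 arrays 33 members were detected, 48.5%, beside 32.4% of all probes, and these 33 probes of 22 genes entered the test. By gene, 20 of 38 had a probe detected on 6 arrays, 4 (Zbtb3, Zbtb11, Zbtb40 and Zbtb43) had a best probe on 1 to 5 arrays, and 14 had no detected probe. The 14 were Zbtb6, Zbtb7b, Zbtb7c, Zbtb8b, Zbtb10, Zbtb16, Zbtb32, Zbtb34, Zbtb37, Zbtb38, Zbtb42, Zbtb44, Zbtb46 and Zbtb49. At a detection p under 0.05 in place of 0.01, 32 member probes were detected on 6 arrays and 22 on 0.

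**Figure D1:**
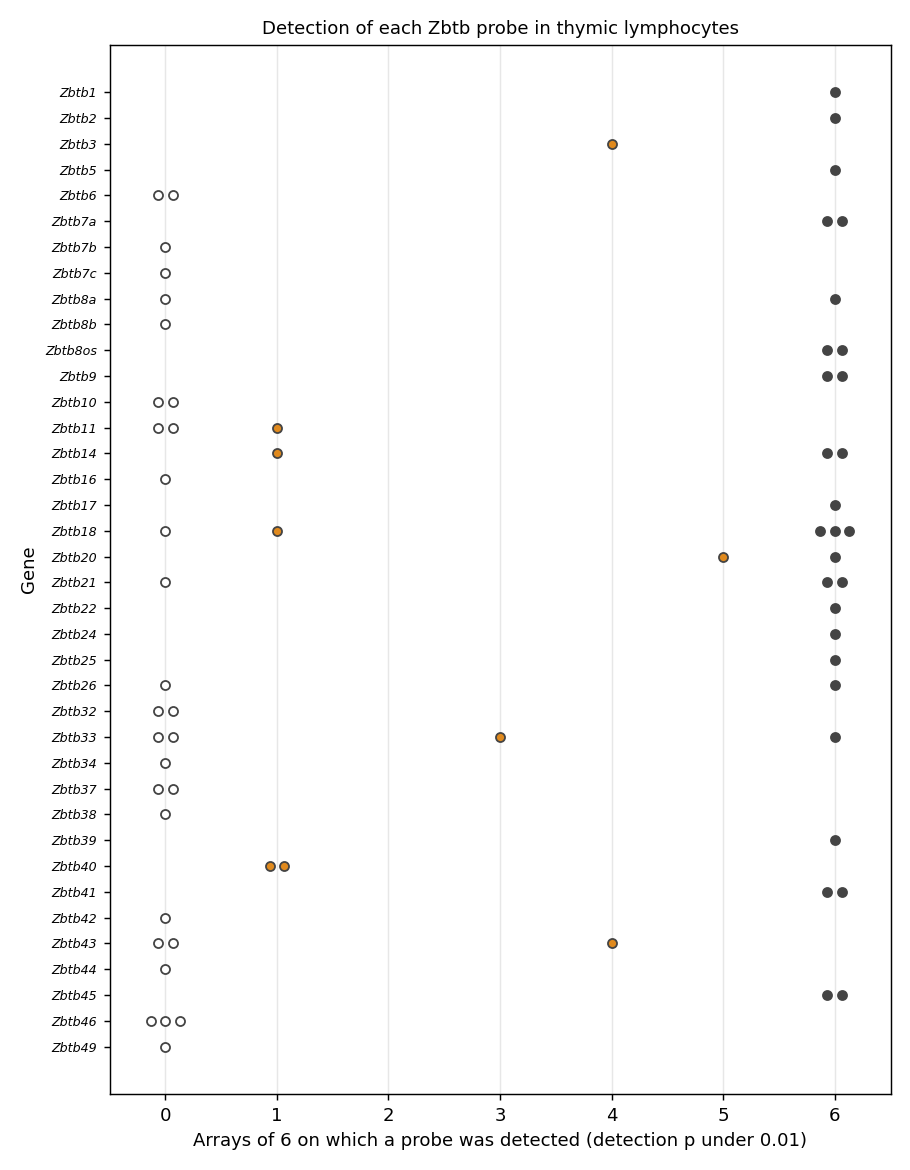
Each point is 1 of the 68 Zbtb probes, placed by its gene and by the number of arrays of 6 on which it was detected at p under 0.01 (open, 0; orange, 1 to 5; dark, 6). Most probes lie at an end of the scale, with 29 at 6 arrays and 30 at 0.

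Both lineage factors belong to the undetected set. The only probe of Zbtb7b, ILMN_2441391, read 4.50, 4.59 and 5.27 on KO replicates 1 to 3 and 5.47, 5.05 and 5.11 on WT replicates 4 to 6. Its detection p was 0.557, 0.38 and 0.0128 in KO and 0.015, 0.0385 and 0.0556 in WT. The WT arrays and KO replicate 3 thus came close to the threshold and KO replicates 1 and 2 did not, and the groups overlap. At a threshold of 0.05 it would be detected on 3 arrays. For Zbtb16 the only probe, ILMN_1229216, read 4.68, 4.86 and 4.88 in KO and 4.42, 4.75 and 4.50 in WT, with detection p from 0.109 to 0.25 in KO and from 0.149 to 0.777 in WT. At the threshold of 0.01 both probes were detected on 0 arrays, so no fold is given for either gene.

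Other factors known from immune cells were likewise undetected. Zbtb32, a repressor in activated lymphocytes, had 2 probes and Zbtb46, a transcription factor that marks classical dendritic cells, had 3 probes, all detected on 0 arrays. The Zbtb46 probes read between 4.34 and 5.24 over all arrays. The list of dendritic cell and antigen presentation markers around Zbtb46 had 4 of 8 genes detected, H2-Aa, H2-Ab1, H2-Eb1 and Cd74, and Itgax, Flt3, Xcr1 and Zbtb46 were detected on 0 arrays. The summed corrected signal of the detected 4 was 6756 to 12385 in KO and 3705 to 5012 in WT, highest on KO replicate 2. Zbtb38, which binds methylated CpG sites, was also undetected with its 1 probe.

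Promoter sequence, which the choice of members did not use, varied widely among them. RefSeq windows of GRCm38.p6, from 250 bases before to 50 bases after an annotated start, were on hand for 34 of the 38 genes, as 47 windows. A member window held a median of 25 CpG dinucleotides (range 1 to 56), against a median of 7 over 32851 windows of 27025 genes. Windows of a chromosome that was not used were left out of both sets. The wider set was not filtered for protein-coding genes, so it is not matched to the members. In members with a probe detected on 6 arrays the median was 26 (28 windows of 20 genes), and in those with no detected probe 19 (15 windows of 11 genes, range 1 to 42), so CpG-poor and CpG-rich windows occur in both sets. The letters GGGCGG, the GC box, on either strand were in 66.0% of member windows and 35.7% of all. CCGGAAG, an ETS motif, was in 25.5% and 8.86% and TATAAA in 12.8% and 13.6%, also on either strand, with each motif counted apart from any overlap with another. Genes can have several windows, which are not independent, and a match describes letters only.

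The windows below were chosen to show that range, with each CpG in capitals and the rest in lower case, 5′ to 3′ on the gene's strand. Zbtb1 and Zbtb25 are neighbouring genes read in opposite directions. Their windows, chr12:76370270-76370569 on the plus strand with 39 CpG and chr12:76369415-76369714 on the minus strand with 51 CpG, are CpG-rich. Zbtb20 (chr16:43247034-43247333, plus strand), the most variable detected member, holds 3 CpG, and Zbtb7b (chr3:89393329-89393628, minus strand), the undetected lineage factor, holds 8.
Zbtb1: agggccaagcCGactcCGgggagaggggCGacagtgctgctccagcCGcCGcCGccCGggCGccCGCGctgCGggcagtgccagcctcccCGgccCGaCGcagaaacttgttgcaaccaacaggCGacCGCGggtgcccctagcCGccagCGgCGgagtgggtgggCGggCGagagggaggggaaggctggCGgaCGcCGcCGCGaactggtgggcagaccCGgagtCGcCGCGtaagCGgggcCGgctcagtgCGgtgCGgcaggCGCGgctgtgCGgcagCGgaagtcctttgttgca
Zbtb25: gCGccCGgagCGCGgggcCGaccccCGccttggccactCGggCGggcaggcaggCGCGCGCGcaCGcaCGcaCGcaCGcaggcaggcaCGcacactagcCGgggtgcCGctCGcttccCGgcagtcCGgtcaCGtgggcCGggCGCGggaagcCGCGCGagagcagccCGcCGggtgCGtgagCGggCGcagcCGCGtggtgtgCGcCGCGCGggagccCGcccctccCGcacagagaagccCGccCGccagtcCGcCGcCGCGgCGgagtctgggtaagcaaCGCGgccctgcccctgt
Zbtb20: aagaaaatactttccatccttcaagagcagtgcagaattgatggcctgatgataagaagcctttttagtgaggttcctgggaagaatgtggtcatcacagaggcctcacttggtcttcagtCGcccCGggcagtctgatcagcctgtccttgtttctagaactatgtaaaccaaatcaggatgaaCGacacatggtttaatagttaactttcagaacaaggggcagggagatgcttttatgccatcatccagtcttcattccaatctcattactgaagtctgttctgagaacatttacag
Zbtb7b: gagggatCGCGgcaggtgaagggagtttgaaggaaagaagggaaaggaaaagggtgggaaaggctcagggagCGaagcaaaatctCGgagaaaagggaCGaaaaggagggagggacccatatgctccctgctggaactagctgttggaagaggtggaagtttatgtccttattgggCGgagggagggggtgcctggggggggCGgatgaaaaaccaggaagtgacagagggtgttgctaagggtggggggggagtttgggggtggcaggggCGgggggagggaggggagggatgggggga

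No tested member passed the test between the genotypes. Of 33 tested probes 0 passed the limma test at an adjusted p under 0.05, beside 0.0273% of all 14651 tested probes, and every adjusted p of a member was 0.998. At an unadjusted p under 0.05 there were also 0, beside 3.54% of all tested probes, the smallest member p being 0.139. The KO and WT arrays overlapped for all 33, where 7.64% of all tested probes had groups that do not overlap. Log2 differences ran from -0.43 to 0.45, so 0 members differed by 2-fold, beside 0.887% of all tested probes. The 95% interval of the difference lay inside a 2-fold change both ways for 26 of the 33, 78.8% beside 74.9% of all tested probes, and for the other 7 it reached past 2-fold. With 3 arrays per group the standard errors of members were 0.19 to 0.55, median 0.29, so small differences were not detectable at this precision. Large ones could fail the adjusted test too: Trim28, at -1.72 ± 0.26, had a limma adjusted p of 0.23. The count of 0 members past the adjusted test therefore does not show that the members were unchanged.

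**Figure D2:**
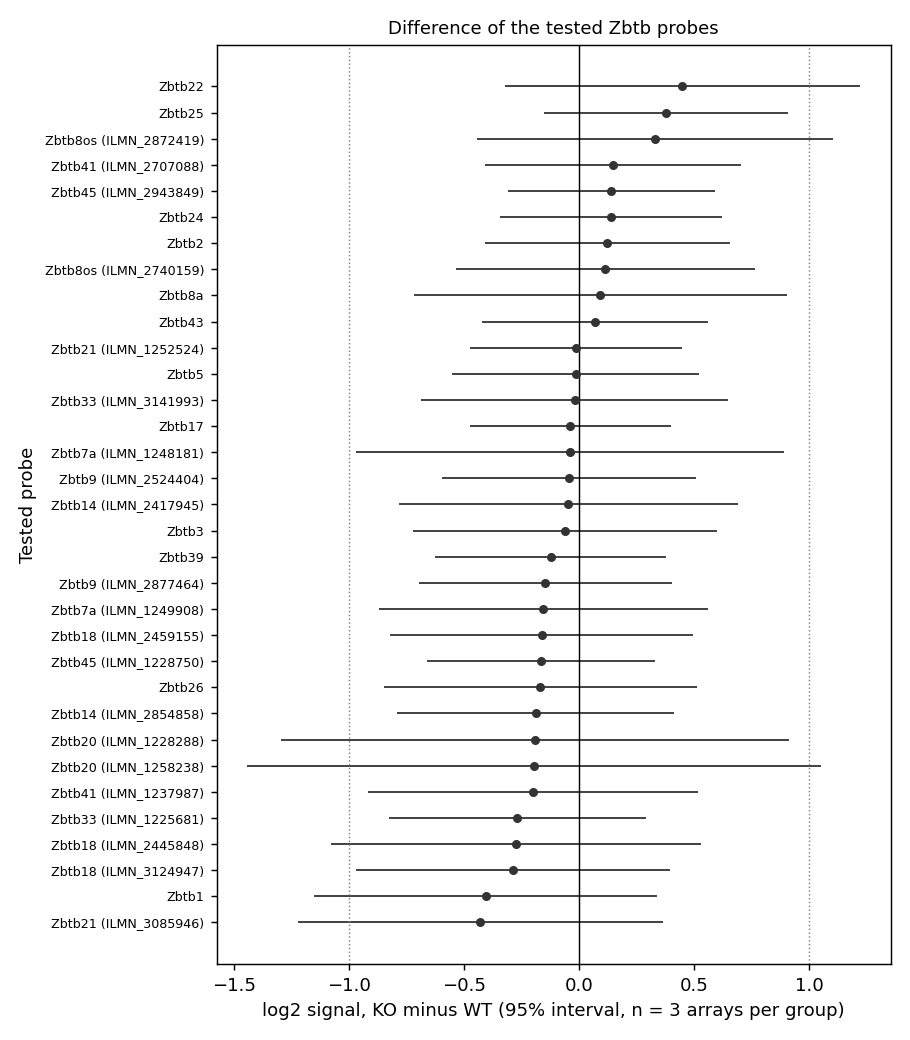
Points give the log2 difference, KO minus WT, of each tested Zbtb probe, lines its 95% interval from limma (n = 3 arrays per group), and dotted lines a 2-fold change. All 33 intervals include 0, and the estimates lie between -0.43 and 0.45.

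The neighbouring genes Zbtb1 and Zbtb25 had estimates of opposite sign. Zbtb25, a BTB zinc finger gene whose role in thymocytes is little defined, read 8.13, 8.63 and 8.75 in KO and 8.01, 8.20 and 8.17 in WT, a log2 difference of 0.38 ± 0.23 (SE; 95% interval -0.15 to 0.90). KO replicates 2 and 3 lay above every WT array and KO replicate 1 below WT replicates 5 and 6. Zbtb1 read 6.73, 5.68 and 5.49 in KO and 6.40, 6.29 and 6.42 in WT, a difference of -0.41 ± 0.33 (-1.15 to 0.34). Here KO replicates 2 and 3 lay below every WT array and KO replicate 1 above them all. Without KO replicate 1 the differences were 0.56 for Zbtb25 and -0.79 for Zbtb1, with unadjusted p of 0.0384 and 0.00915 and adjusted p of 0.848 and 0.822 in limma. In that run 2 of 33 members had an unadjusted p under 0.05, beside 5.79% of all tested probes. The array left out is the one that lay apart from KO replicates 2 and 3 for both genes, so these p-values are selected. The only other tested neighbours among the members, Zbtb8os and Zbtb8a, both had estimates above 0.

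Other factors with roles in lymphocytes had small estimates. Zbtb17 read 10.82, 10.67 and 10.83 in KO and 10.87, 10.79 and 10.76 in WT, a difference of -0.04 ± 0.19 (-0.48 to 0.40), the tightest of the members. Zbtb24, whose human counterpart is mutated in an immunodeficiency with unstable centromeric repeats, read 10.05, 9.60 and 9.87 in KO and 9.71, 9.79 and 9.61 in WT, a difference of 0.14 ± 0.21. The groups overlap for both genes, with KO replicate 2 the lowest array of each.

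Zbtb7a, or LRF, a repressor related to ThPOK, has 2 probes that behaved differently. Probe ILMN_1249908 read 9.33, 8.27 and 9.32 in KO and 9.11, 8.96 and 9.32 in WT, a difference of -0.16 ± 0.31. Probe ILMN_1248181 read 6.56, 7.58 and 7.66 in KO and 6.52, 7.72 and 7.67 in WT, a difference of -0.04 ± 0.41. On the latter KO replicate 1 and WT replicate 4 stood about 1 log2 unit below the other 4 arrays, a split that the former probe does not show. The table's second header line gives each array a number, and those of these 2 arrays follow each other. With the neighbouring numbers as a block the standard error of ILMN_1248181 fell to 0.20 and its difference stayed at -0.04. What sets this pair of arrays apart at this probe was not tested.

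Zbtb20, a repressor of the BTB zinc finger family expressed in many tissues, was the tested member that varied most between animals, with groups that overlap. Probe ILMN_1228288 read 8.17, 7.50 and 9.25 in KO and 7.92, 8.30 and 9.27 in WT, and probe ILMN_1258238 read 6.27, 5.10 and 7.46 in KO and 5.94, 6.46 and 7.01 in WT. On both probes KO replicate 3 and WT replicate 6 were the highest arrays and KO replicate 2 the lowest. The differences between genotypes were -0.19 ± 0.48 and -0.20 ± 0.55. The standard deviations over the 6 arrays, 0.72 and 0.83, exceeded those of 95.1% and 97.2% of all tested probes. KO replicate 3 and WT replicate 6 carry header numbers far above the other 4. With that division as a block the standard errors were 0.25 and 0.35 and the differences unchanged.

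**Figure D3:**
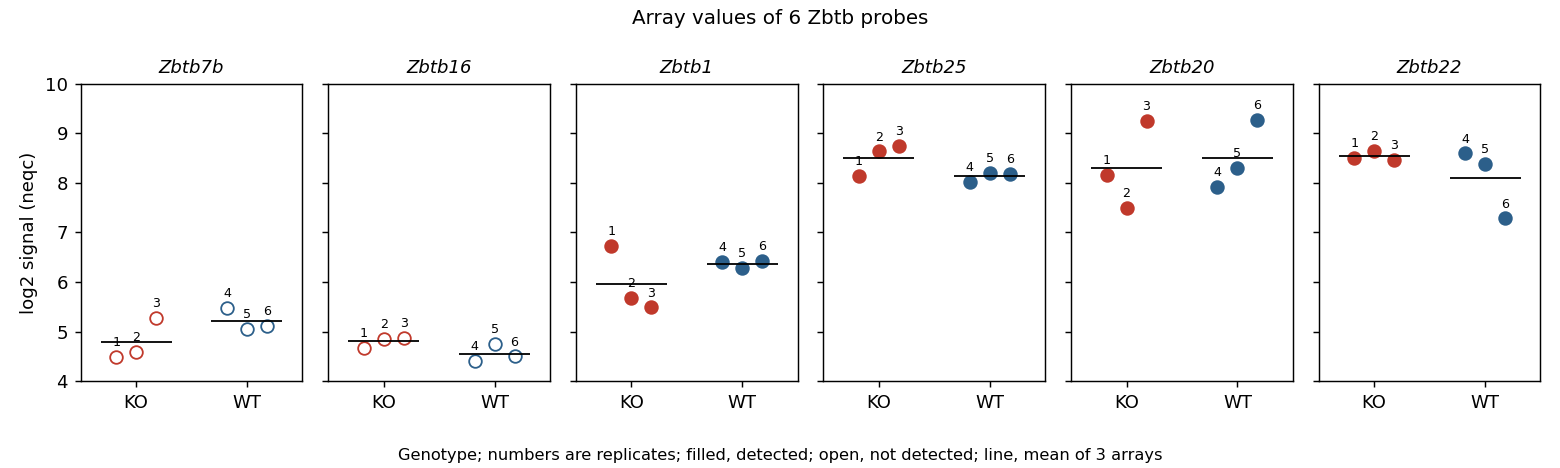
Log2 signals of 6 Zbtb probes on each array (red, KO; blue, WT; numbers, replicates; filled, detected; open, not detected; line, mean of 3 arrays). Zbtb7b and Zbtb16 were detected on 0 arrays, Zbtb1 and Zbtb25 deviate in opposite directions on KO replicates 2 and 3, and Zbtb20 (ILMN_1228288) is highest on KO replicate 3 and WT replicate 6.

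The methyl-CpG binding member with a signal was Zbtb33, or Kaiso. Its probe ILMN_3141993 read 11.02, 10.04 and 10.61 in KO and 10.67, 10.80 and 10.26 in WT, a difference of -0.02 ± 0.29. A second tested probe, ILMN_1225681, was detected on 1 KO and 2 WT arrays and read 5.53, 5.30 and 5.13 in KO and 5.89, 5.22 and 5.66 in WT, a difference of -0.27 ± 0.24. The other 2 probes of Zbtb33 were detected on 0 arrays. In all, 5 genes detected on 6 arrays also had a probe detected on 0 arrays.

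For Zbtb22 and Zbtb8os an estimate above 0 rested on 1 array. Zbtb22, a zinc finger gene in the MHC region, read 8.50, 8.65 and 8.46 in KO and 8.59, 8.39 and 7.28 in WT, a difference of 0.45 ± 0.34 (-0.32 to 1.22). WT replicate 6 stood apart, and without it the difference was 0.05. Zbtb8os probe ILMN_2872419 read 9.99, 10.73 and 9.59 in KO and 10.11, 9.90 and 9.30 in WT, a difference of 0.33 ± 0.34 that was 0.02 without KO replicate 2. Its other probe, ILMN_2740159, gave 0.11 ± 0.28. For Zbtb45 the probe ILMN_2943849 read 8.51, 8.59 and 8.45 in KO and 8.47, 8.21 and 8.45 in WT, a difference of 0.14 ± 0.20, and the other probe gave -0.17 ± 0.22.

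For Zbtb21 and Zbtb18 an estimate below 0 rested on KO replicate 2. Zbtb21 probe ILMN_3085946 read 7.70, 6.40 and 7.33 in KO and 7.31, 7.48 and 7.92 in WT, a difference of -0.43 ± 0.35 that was -0.06 without KO replicate 2. Its other tested probe, ILMN_1252524, gave -0.01 ± 0.20. Zbtb18, the repressor RP58 known from brain development, had 3 probes detected on every array. Probe ILMN_3124947 read 10.55, 9.74 and 10.82 in KO and 10.47, 10.73 and 10.78 in WT, and ILMN_2445848 read 8.84, 7.96 and 9.11 in KO and 8.38, 9.16 and 9.19 in WT. The Zbtb18 differences were -0.29 ± 0.30, -0.27 ± 0.35 and, for ILMN_2459155, -0.16 ± 0.29, and they turned to 0.03, 0.07 and 0.14 without KO replicate 2. On all 3 probes this array was the lowest.

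The remaining tested probes had differences between -0.20 and 0.15. They belong to Zbtb2, Zbtb3, Zbtb5, Zbtb8a, Zbtb9, Zbtb14, Zbtb26, Zbtb39, Zbtb41 and Zbtb43. Of the 10 genes with several tested probes, 8 had differences of one sign, the exceptions being Zbtb41 (-0.20 and 0.15) and Zbtb45.

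Taken as a family, more members were lower than higher in KO, and this balance rested on 1 array. Of the 33 tested probes 23 were lower in KO, 69.7% beside 51.1% of all tested probes, with a median log2 difference of -0.05 beside -0.01 over all. KO replicate 2 was the lowest array for 16 of the 33 members, 48.5%, beside 27.7% of all tested probes. Its median deviation from the probe means was -0.18 over the members, while that of KO replicate 1 was 0.14 and the other 4 arrays lay between 0.00098 and 0.058. Without KO replicate 2, 22 of 33 members were higher in KO and the median was 0.05, beside a median of 0.016 over all tested probes. The median over all probes thus also turned positive in that run, and the share of all probes higher in it was not counted. KO replicate 2 also had the highest summed signal of the antigen presentation markers (12385), the B cell markers (1254, with 2 of 4 genes detected and Ms4a1 and Pax5 on 0 arrays) and the macrophage markers (845.8, with 4 of 5 genes detected), and the lowest of the T lineage markers (62674). In WT these sums were 522.1 to 758.1 for B cell and 292.0 to 535.9 for macrophage markers, and 726.5 to 1254 and 486.1 to 845.8 in KO. The part of such cells in the family's values was not tested.

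**Figure D4:**
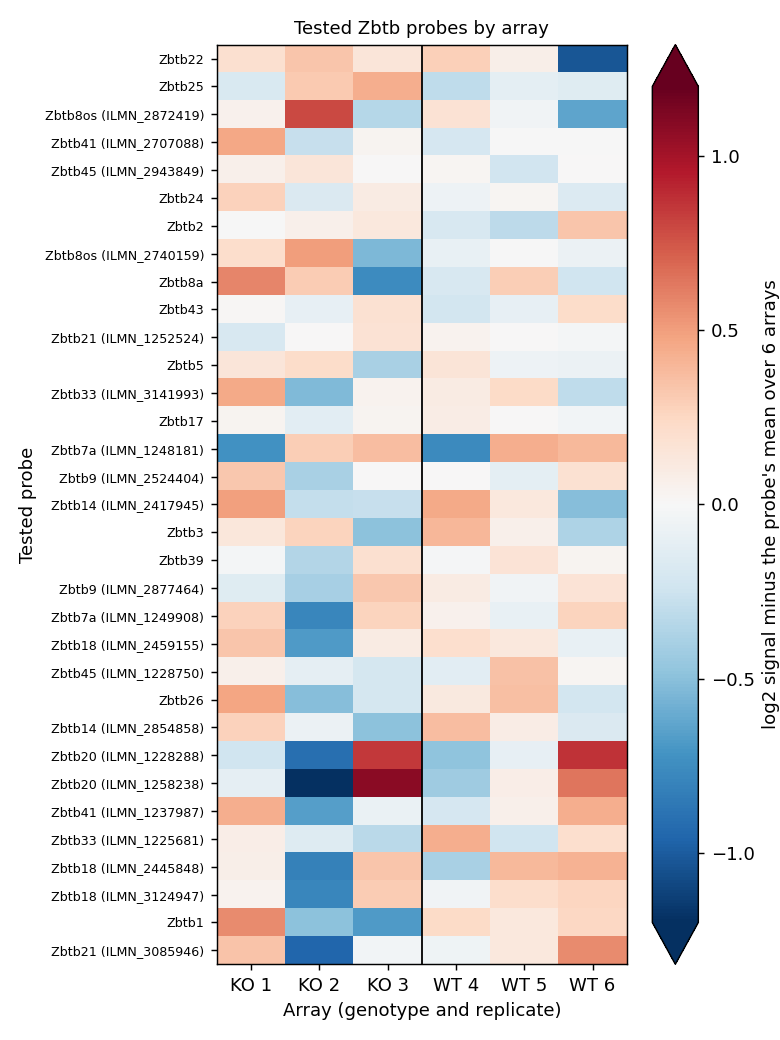
Colour gives the log2 signal of each tested Zbtb probe minus its mean over the 6 arrays (red, above; blue, below; colours saturate at 1.2), with KO arrays left of the line and WT arrays right. KO replicate 2 is the lowest array for 16 of 33 probes, and the Zbtb20 probes are highest on KO replicate 3 and WT replicate 6.

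BTB zinc finger genes named outside the prefix likewise had no member past the test. Of 8 such genes on the array 6 were tested, 0 passed the test, and all 6 were lower in KO by the probe used, with a median of -0.09. Without KO replicate 2, 4 of the 6 were higher and the median was 0.063, and the count of higher genes was 1 without WT replicate 4 and 2 without WT replicate 6. A second tested Gzf1 probe gave 0.015. Bcl6 is a transcriptional repressor expressed in follicular helper T cells and also in double-positive thymocytes. It read 12.45, 11.60 and 12.44 in KO and 11.98, 12.28 and 12.46 in WT, a difference of -0.08 ± 0.29. Patz1, a regulator of the Zbtb7b and Cd8 loci, differed by -0.11 ± 0.25. The corepressors and the ligase scaffold that BTB domains recruit had 8 of 10 genes tested, 3 higher and 5 lower, with 0 past the test and a median of -0.01. Without KO replicate 2, 5 of the 8 were higher and the median was 0.085. Among them Hdac3 differed by 0.03 ± 0.20, Sin3a by -0.24 ± 0.23, Bcor by -0.02 ± 0.23 and Cul3 by 0.01 ± 0.23. Probes of a gene did not always accord: for the deacetylase Hdac2 the probe used gave -0.0047, while ILMN_1231785, detected on 1 KO and 2 WT arrays, gave -0.77 ± 0.32 (limma unadjusted p = 0.0395, adjusted p = 0.998). For Hdac5 the probe used gave -0.12 and the other tested probe 0.33.

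Genes that act with ThPOK in the choice between the CD4 and CD8 fates also had none past the test. Of 12 on the array 10 were tested, with 2 higher, 8 lower, 0 past the test and a median of -0.13, which was 0.03, with 6 genes higher, without KO replicate 2. The count of higher genes was 1 without KO replicate 3 and 4 without WT replicate 6. Gata3, which acts upstream of ThPOK, differed by -0.19 ± 0.20, Tox, needed for CD4 lineage development, by -0.15 ± 0.22, and Cd4 itself by -0.29 ± 0.27. Runx3, the CD8 lineage factor that ThPOK opposes, was detected on 0 arrays. Myb, a transcription factor of thymocyte progenitors, read 7.49, 7.28 and 8.36 in KO and 8.39, 8.75 and 8.88 in WT on probe ILMN_1219713, so that the groups do not overlap. Its difference was -0.96 ± 0.31 (limma unadjusted p = 0.0135, adjusted p = 0.998), but the other tested Myb probes gave -0.01 and -0.03.

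The list of innate-like T cell genes linked with PLZF had mostly positive estimates, with Zbtb16 itself undetected. It was drawn up with earlier results of these arrays known and is no independent evidence of direction. Of 14 genes on the array 11 were tested, 10 of them higher and 1 lower in KO, where 51.1% of all tested probes were lower. Their median log2 difference was 0.47 beside -0.01 over all tested probes, and 0 passed the test. The count takes the brightest probe of each gene, and other tested probes went the other way for Slamf1, a receptor of thymocyte selection (0.12 by the probe used, 0.16 and -0.72 by the others), and for Id2, a regulator of innate-like lymphocytes (0.57 and -0.16). Il18r1, a chain of the interleukin 18 receptor, read 7.09, 6.82 and 7.58 in KO and 5.44, 5.35 and 5.99 in WT on probe ILMN_1218525, a difference of 1.57 ± 0.28 (limma adjusted p = 0.401). That probe was detected on 3 KO arrays and 1 WT array, so it met the detection filter through KO and most of its WT readings are undetected. Its groups do not overlap, and the other 2 probes of Il18r1 were detected on 0 arrays. Fyn, a kinase that natural killer T cells need, read 8.69, 8.01 and 8.33 in KO and 7.44, 7.78 and 8.01 in WT, a difference of 0.60 ± 0.26 (adjusted p = 0.998), where KO replicate 2 and WT replicate 6 nearly coincide, and its other 2 probes were detected on 0 arrays. Cxcr6, a chemokine receptor of these cells, was detected on 2 KO and 1 WT arrays and differed by 0.66 ± 0.36. Il18rap was detected on 3 KO and 2 WT arrays and differed by 0.50 ± 0.30. On probes detected on all 6 arrays the median of the list was lower, as given in the last section. Of the markers of natural killer and innate-like T cells 3 of 5 were detected, with a summed signal of 180.6 to 415.4 in KO, highest on KO replicate 2, and 157.6 to 197.9 in WT, while Klrb1c and Ncr1 were detected on 0 arrays. Markers of some other cells were also higher in KO by estimate. The 4 tested antigen presentation genes had a median of 1.06. All 4 had an unadjusted p under 0.05 in limma, beside 3.54% of all tested probes. The medians were 0.72 for the 2 tested B cell genes and 0.54 for the 3 tested macrophage genes. The macrophage median is the estimate of Csf1r, detected on 3 KO and 1 WT arrays, while Mpeg1 and C1qb, detected on all 6, gave 0.85 and 0.28. Of the B cell genes Blk was detected on 3 KO and 2 WT arrays and gave 0.83, and Cd79b, detected on all 6, gave 0.62. The 5 tested neutrophil genes were all lower, with a median of -0.51, as was the 1 tested erythroid gene (-0.14). Of these genes 0 passed the adjusted test. The 3 cell cycle markers were lower, with summed signals of 3229 to 5721 in KO and 5853 to 7678 in WT that do not overlap. By gene the groups were apart for Foxm1 only and overlapped for Top2a and Cdk1. The part of such cells in this list was not tested. The list had 11 of 11 genes higher without KO replicate 2, with a median of 0.29, and its median was 0.27 without WT replicate 5.

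**Figure D5:**
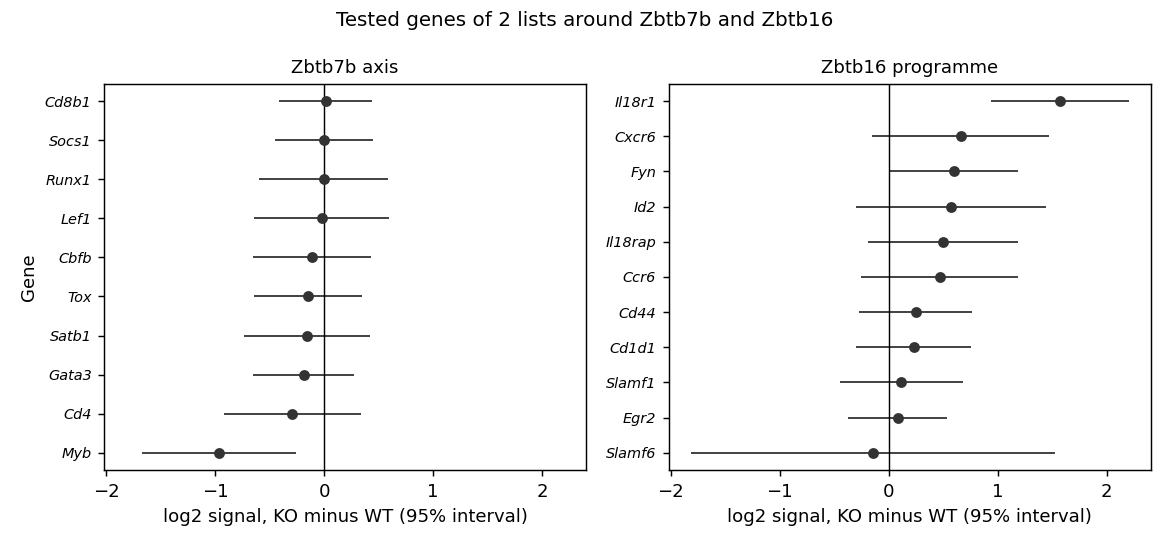
Log2 differences, KO minus WT, with 95% intervals (limma, n = 3 arrays per group) for the tested genes of the Zbtb7b axis (left, 10 genes) and the Zbtb16 programme (right, 11 genes), each gene by its brightest tested probe. The left list has 2 genes above 0 and the right list 10, with Il18r1, detected on 3 KO arrays and 1 WT array, at 1.57.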

How the data were processed

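Illumina mouse bead arrays of 3 KO and 3 WT thymic lymphocyte samples were used. The main deposited table gives, per the file headers, a linear signal intensity and a detection p-value for every probe and array, and its array totals differ. A second deposited table gives the authors' processed intensity for these arrays: it has values below 0 and one common maximum, as after background subtraction and equalization, but how it was made is not stated. It was tried as an alternative, with negative values raised to 0. The submitters' processing notes name BeadStudio 3.1.3.

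Signals were normalized with neqc in limma 3.58.1 (R 4.3.3) with an offset of 16. Probes detected (p under 0.01) on at least 3 of 6 arrays were fitted with lmFit and eBayes, KO minus WT, with no covariate, 4 residual and 4.51 prior degrees of freedom, and Benjamini-Hochberg adjustment over all 14651 tested probes (two-sided, threshold 0.05). Precision is limited by the number of arrays. The fit was tested on simulated data. For a list gene with several tested probes the brightest on average was used. Corrected sums of markers are linear signals after normalization, without the offset.

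Symbols came from the platform annotation, and all 68 member gene numbers matched GRCm38.p6 with unchanged symbols. Of 42 genes with such symbols there, 38 have a probe here and the others were not analysed. Probe specificity was not checked.

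Array values are given for Zbtb7b, Zbtb16, the tested members of the role lists, and the 5 tested probes with the smallest p in each direction; Zbtb46 was added as a list member, and other list genes were chosen after their values were seen. Members and lists were chosen with earlier results of these data known. Header numbers are consecutive or nearly so in 3 KO and WT pairs. Deviations from the group means correlated by 0.128, 0.164 and 0.518 within these pairs. Between KO and WT arrays of different pairs they correlated by -0.464 to 0.317, so the ranges overlap. The pairing is inferred, not labelled. Alternatives changed the background correction, offset, normalization, filter, prior, weights and blocks, or left out 1 array.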

Additional observations from a re-analysis of the deposited data

How the results depend on the processing

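Of the 33 tested members, 0 passed an adjusted p of 0.05 under any of the alternatives run, including the replicate block on neighbouring header numbers (count 0, paired median -0.05) and the division of header numbers as a block (0). The estimate kept its sign under every alternative run for 9 of 33 members and changed it under at least 1 for 24. With array weights 16 members were higher in KO. With array weights the log2 differences that changed sign were Zbtb8a ILMN_2854117 -0.0017, Zbtb41 ILMN_1237987 0.046, Zbtb7a ILMN_1249908 0.12, Zbtb20 ILMN_1228288 0.065, Zbtb33 ILMN_3141993 0.055, Zbtb9 ILMN_2524404 0.16, Zbtb14 ILMN_2417945 0.017, Zbtb20 ILMN_1258238 0.064. Leaving out 1 array in turn gave, for members whose sign changed, log2 differences of Zbtb8a ILMN_2854117 -0.18 to 0.49, Zbtb41 ILMN_1237987 -0.47 to 0.079, Zbtb7a ILMN_1249908 -0.34 to 0.19, Zbtb20 ILMN_1228288 -0.66 to 0.21, Zbtb17 ILMN_1232592 -0.065 to 0.014, Zbtb2 ILMN_2860932 -0.0064 to 0.32, Zbtb26 ILMN_2465683 -0.45 to 0.047, Zbtb3 ILMN_2924299 -0.26 to 0.17, Zbtb33 ILMN_3141993 -0.25 to 0.24, Zbtb39 ILMN_1245131 -0.25 to 0.022, Zbtb41 ILMN_2707088 -0.049 to 0.32 and Zbtb43 ILMN_2503987 -0.023 to 0.20. In the same runs the ranges were Zbtb5 ILMN_1248222 -0.13 to 0.18, Zbtb7a ILMN_1248181 -0.43 to 0.32, Zbtb8os ILMN_2740159 -0.11 to 0.41, Zbtb9 ILMN_2877464 -0.35 to 0.016, Zbtb9 ILMN_2524404 -0.21 to 0.14, Zbtb14 ILMN_2854858 -0.38 to 0.0089, Zbtb14 ILMN_2417945 -0.32 to 0.17, Zbtb18 ILMN_2459155 -0.37 to 0.14, Zbtb18 ILMN_2445848 -0.54 to 0.065, Zbtb18 ILMN_3124947 -0.51 to 0.029, Zbtb20 ILMN_1258238 -0.79 to 0.39 and Zbtb21 ILMN_1252524 -0.10 to 0.079. With no filter on dim probes 32 of 68 were higher, and 1 (Zbtb37 probe ILMN_1235549, detected on 0 arrays) had an unadjusted p under 0.05 in limma, beside 3.92% of all probes. Without 1 array the count of higher members ran from 10 to 22, the highest without KO replicate 2, the median difference from -0.14 to 0.05, and the count at an unadjusted p under 0.05 from 0 to 2, the highest without KO replicate 1 (Zbtb1 and Zbtb25). Without KO replicate 1, 5.79% of all tested probes had such a p in limma. Trim28 passed with a prior that follows intensity and is robust to outliers (-1.72, adjusted p = 0.0308), and ran from -1.88 to -1.49 without 1 array. In the Zbtb7b list, cyclic loess gave 0 genes higher and array weights 5, array weights gave 3 of the 6 BTB zinc finger genes outside the prefix higher, and in the Zbtb16 list the median was 0.21 without background correction, 0.24 on probes detected on all 6 arrays and 0.24 with array weights. These list runs were chosen after seeing the data. The causes were not tested. No difference is reported for Zbtb7b or Zbtb16 under any setting, since both were detected on 0 arrays, and updating gene symbols changed no member.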
